A study of Arabidopsis thaliana with 6 samples.

Results

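Root hairs are tubular outgrowths of single epidermal cells that grow at the tip and enlarge the surface through which a root takes up ions and water. Their growth runs through a chain of basic helix-loop-helix (bHLH) transcription factors, in which RHD6 acts early and RSL2 and RSL4 act later to set how long a hair grows. Downstream are enzymes and regulators of the growing tip and proteins that loosen or build its cell wall. The 10 genes described here were chosen by locus as known genes of this process, out of 33977 IDs in each of the 6 deposited count files: the factors RHD6, RSL2 and RSL4, the tip growth genes RHD2 and COW1, and the wall genes EXPA7, EXPA18, LRX1, PRP1 and PRP3. They were chosen with earlier results of these data known. All 10 were found in the files and all 10 passed the filter on low counts.

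The samples are whole plants of Arabidopsis thaliana, Col-0 ecotype, kept for 10 days at 22 °C in long days (16 h light, 8 h dark). Of these, 3 controls (labelled Mock) grew on half-strength MS, a standard mineral medium, and 3 treated samples on that medium with 1.5 mM cesium chloride (CsCl), so that the treated plants met cesium from sowing. Cesium ions resemble potassium ions and enter plants by some of the same routes. Both groups share genotype, age and medium, and each sample is RNA from shoot and root together, in which root hair cells are a small share. In such bulk samples, fewer hair cells and less RNA per hair cell cannot be told apart.

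Libraries held 32075069 to 44108369 counts, the deepest being CsCl replicate 3. Between 65.5% and 73.4% of values from 1 to 50 were even, as if both mates of a pair had been counted. In that case counts of any size, and not only low ones, rest on fewer fragments than they show. Levels are given as CPM, in which each count is divided by a library size that TMM scaling has corrected for composition. The labels do not say if replicates were separate plates or sowings, so p-values reflect only how these samples varied, and that variation may be technical. Of 21005 genes tested, 1.32% were called lower and 0.843% higher with CsCl, 2.16% in either direction. The test was edgeR's quasi-likelihood F test, with p-values adjusted by Benjamini and Hochberg's method over all of these genes and a threshold of 0.05.

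Several of these genes share a stretch of promoter sequence. The root hair element is a short motif, bound by RSL4, that was defined from promoters of root hair genes, EXPA7 and EXPA18 among them, so a match in these genes is a description and not an independent finding. In the 250 bases before the annotated gene start, searched on both strands, it matched in 5 of the 10 genes and in 0.754% of the 27443 promoters of protein-coding genes in the files. All 5 were the wall genes. The matches are shown from 20 bases before to 20 bases after the element, read 5′ to 3′ on the gene's strand, with the element in capitals. Sequences and coordinates are those of RefSeq's TAIR10.1 assembly, found by locus.
PRP1: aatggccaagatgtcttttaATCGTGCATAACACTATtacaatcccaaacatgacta
PRP3: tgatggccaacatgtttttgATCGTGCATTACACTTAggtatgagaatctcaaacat
EXPA7: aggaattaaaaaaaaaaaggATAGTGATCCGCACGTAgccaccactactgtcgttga
EXPA18: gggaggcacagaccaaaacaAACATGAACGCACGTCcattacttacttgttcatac
LRX1: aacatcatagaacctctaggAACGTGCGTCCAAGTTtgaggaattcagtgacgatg

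The windows lie at chr1:20504752-20504808 for PRP1, chr3:23182535-23182591 for PRP3, chr1:4276407-4276463 for EXPA7, chr1:23331503-23331558 for EXPA18 and chr1:4069879-4069934 for LRX1, and all 5 genes are on the plus strand. In PRP1, PRP3 and LRX1 the element lay on the strand opposite to the gene, and in both expansin genes on the strand of the gene. It began 129 bases before the gene start in PRP1 and 167 in PRP3, against 40 in EXPA18. The promoters of PRP1 and PRP3 were the most alike among the 10, with 66.4% of the 250 bases identical in a global alignment; the next pair, RHD6 and RHD2, reached 59.2%. Both PRP promoters carry the run aaacattttcttata, which starts 25 bases before the start of PRP1 and 59 bases before that of PRP3. The other motif searched, the G-box CACGTG, matched in none of the 10 and in 6.49% of all promoters.

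**Figure D1:**
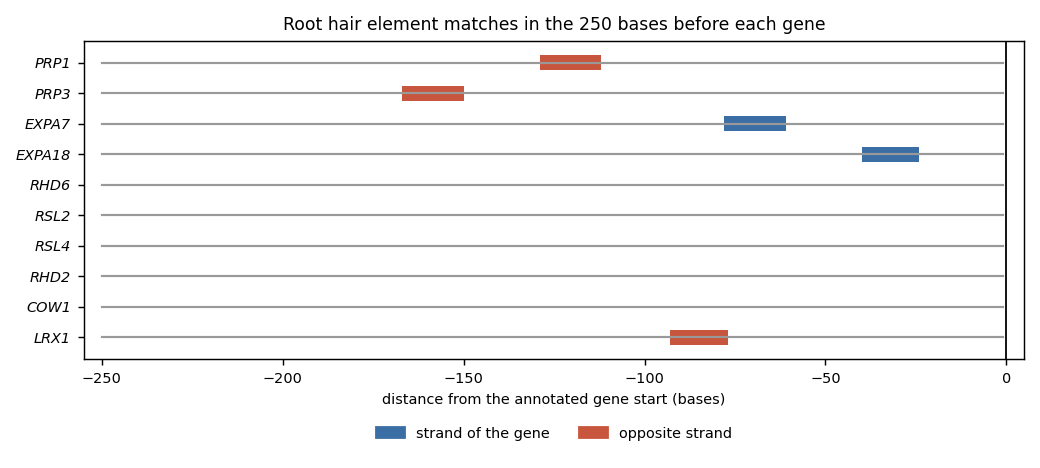
Matches to the root hair element in the 250 bases before the annotated start of each of the 10 genes; the horizontal axis is the distance from the start in bases, and bar colour gives the strand. The 5 wall genes each carry a match, between 167 and 25 bases before the start, and the other 5 genes show none in this window.

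The element was also found before genes outside this set. Of the 202 others with a match, 154 were tested, 2 were lower and 4 higher with CsCl, where 1.32% of all tested genes were lower and 0.843% higher. Their median log2 fold change was -0.04 against 0.01 over all tested genes. At an unadjusted edgeR p under 0.05, 22 were lower and 9 higher, against 7.75% and 6.67% of all tested genes. All CsCl libraries lay below all controls in 26 and above in 13, against 9.75% and 10.0%. The 6 called genes are named after their values were seen, with means ± SD of 3 libraries per group. Of the higher genes, AZI1 (AT4G12470), a lipid transfer protein known from systemic defence, stood at 5.28 ± 0.580 CPM in controls and 27.4 ± 6.61 CPM with CsCl, a log2 difference of 2.37 ± 0.154 (edgeR adjusted p = 1.86e-06). CSD1 (AT1G08830), a copper/zinc superoxide dismutase, stood at 22.0 ± 3.34 and 51.0 ± 4.29 CPM (1.22 ± 0.0984, edgeR adjusted p = 1.54e-05). AT4G12735 was near 0 in controls, at 0.0406 ± 0.0703 CPM, and stood at 1.44 ± 0.645 CPM with CsCl, and AT5G54100 went from 12.7 ± 0.0266 to 16.9 ± 1.22 CPM. The lower genes were AT3G26460, from 36.4 ± 7.27 to 21.4 ± 2.06 CPM, and the major latex protein gene MLP328 (AT2G01520), from 326 ± 17.8 to 247 ± 12.2 CPM. AZI1, AT5G54100, AT3G26460 and MLP328 each share a window of 95 identical bases in 100 with 1 or 2 other genes. The lower count became 4 with DESeq2, 7 with no filter and 3 with robust edgeR, with the replicate block and without control replicate 2 or CsCl replicate 3. AT5G54100 lost its call with root marker scaling, with the replicate block (edgeR adjusted p = 0.0591), and without any 1 of control replicates 2 and 3 and CsCl replicates 2 and 3; MLP328 lost its call with root marker scaling.

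With CsCl, 2 of the 10 root hair growth genes were lower and none was higher, against 1.32% and 0.843% of all tested genes. Because the 10 genes and the lists below were chosen with earlier results known, such shares describe the sets and do not test them. The 2 lower genes were PRP1 and PRP3, which encode proline-rich proteins of the root hair wall and stood at 78.9% and 78.1% of their control level. RSL4 and LRX1 also had every CsCl library below every control library, at 75% and 87.2% of control, but did not pass the test. Such a separation was seen in 4 of the 10 genes and in 9.75% of all tested genes. EXPA7, EXPA18, COW1, RHD6 and RHD2 stood between 94.5% and 101% of control, with groups that overlapped, and RSL2 at 86.4%, also with overlap. The median log2 fold change of the 10 was -0.14, against 0.01 over all tested genes, and 9 of the 10 were below 0, as were 48.6% of all tested genes.

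PRP1 (AT1G54970, chr1:20504901-20506504, 2 exons) stood at 62.8, 63.9 and 53.1 CPM in control replicates 1 to 3 and at 49.9, 45.7 and 46.3 CPM with CsCl. The groups did not overlap, and control replicate 3 lay closest to the CsCl libraries. PRP1 fell by 0.34 ± 0.0747 (SE) on the log2 scale, with a 95% interval from -0.50 to -0.18 (edgeR adjusted p = 0.0281). PRP3 (AT3G62680, chr3:23182722-23184042, 2 exons) stood at 148, 138 and 148 CPM in controls and at 129, 100 and 110 CPM with CsCl. Its control libraries were close together, and CsCl replicate 1 lay nearest to them. PRP3 fell by 0.36 ± 0.0797 on the log2 scale, with an interval from -0.53 to -0.19 (edgeR adjusted p = 0.0320). The ratio of PRP3 to PRP1, each per exon length, was 2.74 ± 0.362 in controls and 2.68 ± 0.221 with CsCl (SD, n = 3), so the 2 genes kept their proportion within the spread. Their transcripts are related, with at most 91 identical bases in any 100 aligned, under the 95 taken here as the point where reads may be shared.

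Whether the 2 genes passed depended on the setting more than their fold changes did. Both passed with DESeq2 (adjusted p = 0.00342 for PRP1 and 0.00132 for PRP3) and with edgeR on all genes without a filter (0.00205 and 0.00118). Adjusted p rose above 0.05 when libraries were scaled by total counts alone (0.0807 for PRP1, 0.0612 for PRP3), with log2 fold changes of -0.31 and -0.32. It did so too after a correction for GC content and length (0.0595 and 0.0621), with log2 fold changes of -0.31 in both. PRP1 lost its call without control replicate 1 or 2 or CsCl replicate 2 or 3, and PRP3 without control replicate 3 or CsCl replicate 2 or 3; with either of those CsCl libraries left out, none of the 10 genes passed.

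LRX1 (AT1G12040, chr1:4069992-4072681, a single exon) encodes a leucine-rich repeat extensin that shapes the hair's wall. It stood at 57.7, 61.9 and 57.1 CPM in controls and at 55.5, 50.3 and 48.2 CPM with CsCl. The groups were apart by little, since CsCl replicate 1 came close to the lowest control. The log2 fold change was -0.20 ± 0.0666 (edgeR adjusted p = 0.174), with an interval from -0.34 to -0.06.

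The expansins EXPA7 (AT1G12560, chr1:4276505-4277969) and EXPA18 (AT1G62980, chr1:23331563-23333246), which loosen the wall of the growing hair, showed no difference past the spread. EXPA7 stood at 14, 12.8 and 15.6 CPM in controls and at 15.6, 12.0 and 13.3 CPM with CsCl. EXPA18 stood at 17.6, 19.9 and 21.6 CPM and at 21.4, 15.4 and 20.3 CPM. In both, control replicate 3 and CsCl replicate 1 were the 2 highest libraries and CsCl replicate 2 the lowest. The log2 fold change was -0.05 in each, with intervals from -0.29 to 0.18 for EXPA7 and from -0.30 to 0.19 for EXPA18 (edgeR adjusted p = 0.882 and 0.884), so that a fall of the size seen in PRP1 lies outside the interval fitted for either. Whether the expansins and the PRP genes differ in response was not tested. EXPA7 overlaps the opposite-strand gene AT1G12570 by 23 bases; that gene had 781 counts over the 6 libraries against 2945 for EXPA7.

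**Figure D2:**
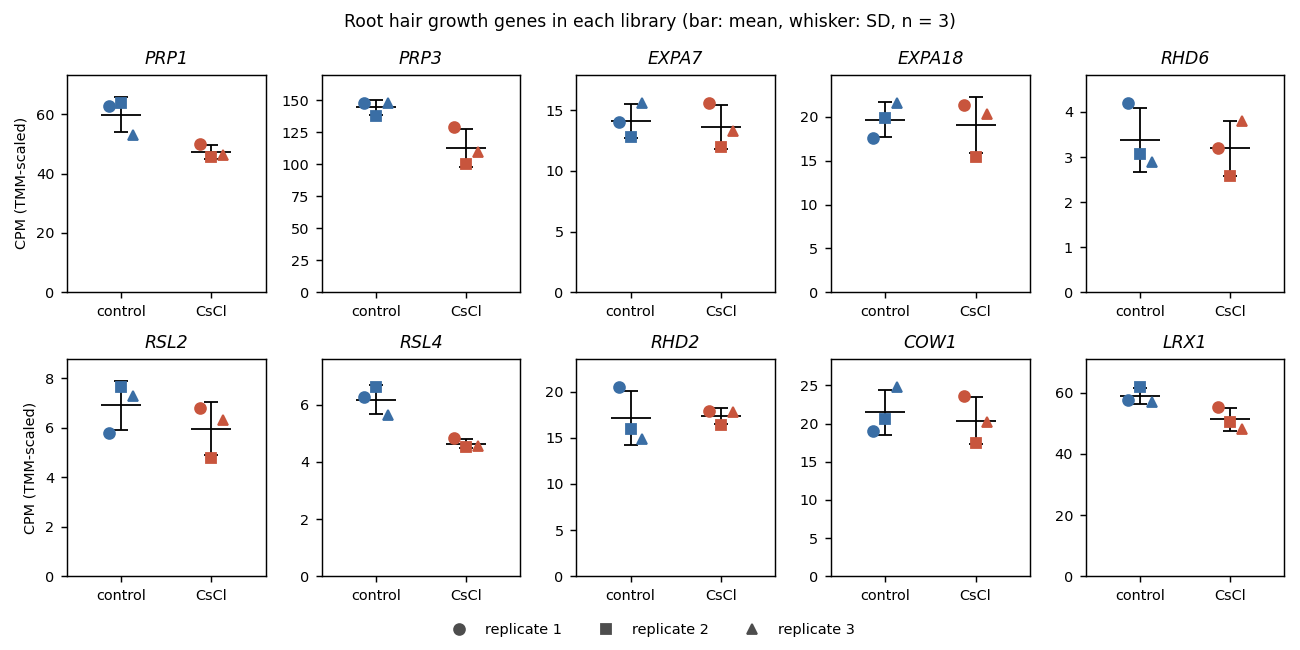
CPM of each of the 10 genes in the 3 control (blue) and 3 CsCl (red) libraries, with symbols for replicate numbers, a bar for the mean and whiskers for the SD; each vertical axis starts at 0. In PRP1, PRP3, RSL4 and LRX1 all 3 CsCl libraries lie below all 3 control libraries, and in the other 6 genes the groups overlap.

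Among the transcription factors, RSL4 (AT1G27740, chr1:9654475-9656089), whose level is known to set hair length, had the lowest log2 fold change of the 10. It stood at 6.27, 6.62 and 5.64 CPM in controls and at 4.82, 4.53 and 4.55 CPM with CsCl. The CsCl libraries were tightly grouped and all lay below the controls. These levels rest on 192 to 220 counts per control library and 156 to 206 per CsCl library. The log2 fold change was -0.42 ± 0.131, with an interval from -0.70 to -0.13; its unadjusted p was 0.00686 and its edgeR adjusted p 0.143, so the call fails the correction over all genes. Across the 18 alternative settings in which it was refitted the fold change stayed between -0.48 and -0.35, and the adjusted p between 0.124 and 0.781.

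RSL2 (AT4G33880, chr4:16239363-16241169, minus strand), which acts beside RSL4 in hair elongation, stood at 5.79, 7.64 and 7.28 CPM in controls and at 6.79, 4.78 and 6.32 CPM with CsCl. Control replicate 1 lay among the CsCl libraries. Its log2 fold change was -0.21 ± 0.154 (edgeR adjusted p = 0.585). RHD6 (AT1G66470, chr1:24795214-24797015), which starts hair formation together with RSL1, stood at 4.20, 3.07 and 2.88 CPM in controls and at 3.21, 2.58 and 3.8 CPM with CsCl. The 2 groups were interleaved. RHD6 had 90 to 172 counts per library, the fewest of the 10, and its interval from -0.51 to 0.36 was the widest (edgeR adjusted p = 0.908). It shares a window of 95 identical bases in 100 with RSL1 (AT5G37800), which had 12 to 32 counts per library, so reads of the pair may be mixed to that extent.

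RHD2 (AT5G51060, chr5:20757199-20762461, minus strand), an NADPH oxidase also called RBOHC that makes reactive oxygen at the hair tip, stood at 20.5, 16.0 and 14.9 CPM in controls and at 17.9, 16.4 and 17.8 CPM with CsCl. It was the only one of the 10 with a fold change above 0 in the fit to all 6 libraries, and control replicate 1 held its highest value and control replicate 3 its lowest. The log2 fold change was 0.02 ± 0.108, with an interval from -0.21 to 0.25 (edgeR adjusted p = 0.957), and turned below 0 when control replicate 2 or 3 or CsCl replicate 1 or 3 was left out. COW1 (AT4G34580, chr4:16515102-16518746), a phosphatidylinositol transfer protein that keeps growth at the tip, stood at 19.0, 20.6 and 24.8 CPM in controls and at 23.6, 17.4 and 20.2 CPM with CsCl. Its libraries were ordered much like those of EXPA18, with control replicate 3 highest and CsCl replicate 2 lowest. The log2 fold change was -0.07 ± 0.115 (edgeR adjusted p = 0.826).

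The libraries did not contribute evenly to this picture. CsCl replicate 2 was the lowest of the 6 libraries for 8 of the 10 genes, the exceptions being LRX1, lowest in CsCl replicate 3, and RHD2. The summed level of the 10 genes was 351 to 356 CPM in controls and 328, 269 and 291 CPM in CsCl replicates 1 to 3. Without CsCl replicate 2 the median log2 fold change of the 10 was -0.03, while PRP1 kept -0.32, PRP3 -0.28 and RSL4 -0.40.

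**Figure D3:**
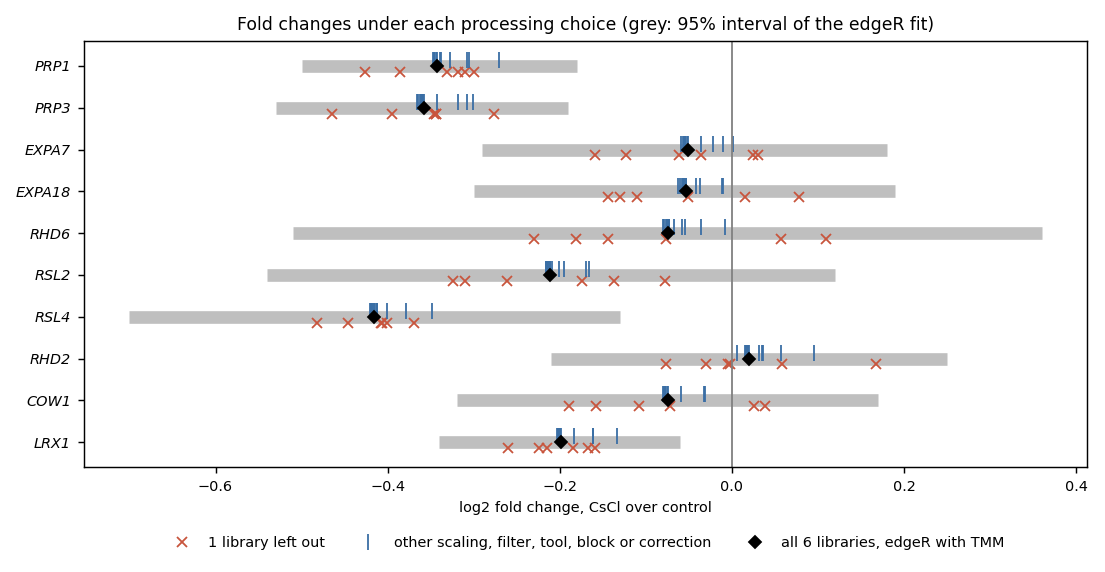
Log2 fold change of each gene, CsCl over control, with all 6 libraries (diamond), with 1 library left out (crosses) and under other processing choices (ticks); the grey bar is the 95% interval of the edgeR fit. All points of PRP1, PRP3, RSL2, RSL4 and LRX1 lie below 0, and those of the other 5 genes fall on both sides of it.

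Per exon length, the level of the 10 genes spanned 50-fold in controls and 41.3-fold with CsCl. In controls the order was PRP3 at 119 ± 4.55 CPM per kb of exon, PRP1 at 43.7 ± 4.33, LRX1 at 21.9 ± 0.960, EXPA18 at 15.8 ± 1.61, EXPA7 at 12.6 ± 1.28, COW1 at 10.6 ± 1.48, RHD2 at 5.21 ± 0.904, RSL2 at 5.01 ± 0.713, RSL4 at 4.62 ± 0.372 and RHD6 at 2.37 ± 0.502 (SD, n = 3). The wall genes held the top 5 places and RHD6 the last. Libraries of EXPA7 and COW1, of RHD2 and RSL2, and of RSL2 and RSL4 overlapped, so these neighbours cannot be ordered beyond their spread. The same order of means was seen with CsCl. EXPA18 and EXPA7, which kept a ratio per exon length of 1.25 ± 0.134 in controls and 1.24 ± 0.114 with CsCl, overlapped there as well, while RHD2 no longer overlapped RSL2.

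**Figure D4:**
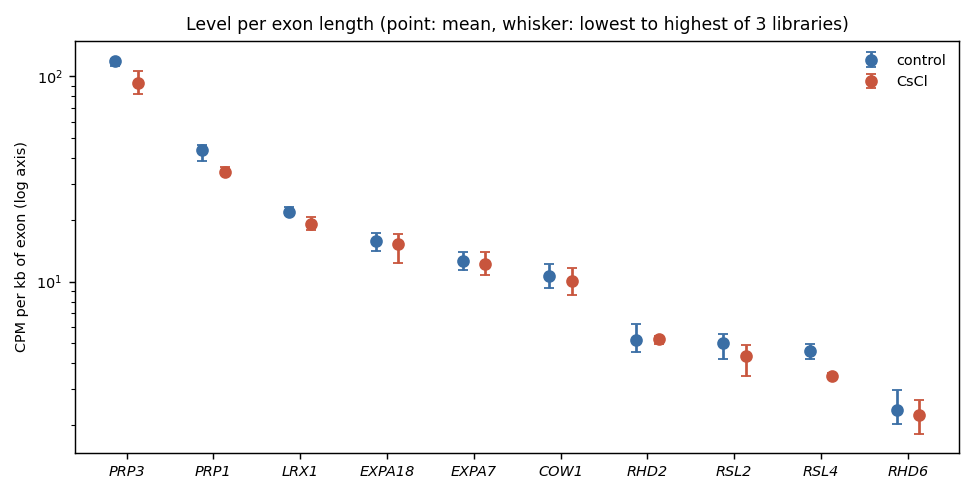
Level of each gene as CPM per kb of exon on a log axis, in order of the control mean; points are means and whiskers run from the lowest to the highest of 3 libraries. PRP3 and PRP1 stand above the rest, and the order of means is the same in control (blue) and CsCl (red) libraries.

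The other genes of hair growth gave few calls, and most had fold changes below 0. In 6 further lists of root hair genes, 84 genes were tested and none passed with edgeR; 17 had an unadjusted p under 0.05 (16 lower and 1 higher, against 7.75% and 6.67% of all tested genes), and 1 passed with DESeq2 and 0 with limma-voom. Their median log2 fold change was -0.11, with 67 of 84 below 0, as were 48.6% of all tested genes. Among 23 other wall genes all fold changes were below 0, with a median of -0.18 and a range from -0.36 to -0.04, and 8 had an unadjusted p under 0.05. COBL9 (AT5G49270), a membrane-anchored protein needed for wall deposition in hairs, averaged 18.8 ± 0.790 CPM without and 15.1 ± 0.979 CPM with CsCl (edgeR adjusted p = 0.0718). The extensins in that list are near copies of each other: EXT6, EXT7 and EXT10 share windows with 4 or 5 other genes, so their values are not separate. EXT12 (AT4G13390) was the gene past DESeq2's threshold (log2 fold change -0.34, DESeq2 adjusted p = 0.0388) and was named after its values were seen.

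Among 26 other tip growth genes the median log2 fold change was -0.07. The lowest unadjusted p there belonged to CAP1 (AT5G61350), a receptor-like kinase of the growing hair, at 15.8 ± 1.51 and 12.1 ± 1.46 CPM (edgeR adjusted p = 0.0871). ACT2 (AT3G18780), the main vegetative actin and itself needed for hair growth, averaged 922 ± 81.4 CPM in controls and 866 ± 75.9 CPM with CsCl (edgeR adjusted p = 0.655). ACT2 shares a window with AT1G49240, and RHS14, GL2 and PYK10 below also share one with other genes. Of 7 other hair-specific genes all were below 0, with RHS14 (AT4G22080) at 10.3 ± 0.641 and 8.13 ± 1.24 CPM (edgeR adjusted p = 0.198).

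The lists of other hair regulators held fold changes on both sides of 0. Of 6 other bHLH factors of the RHD6 and LRL families 4 were below 0, and LRL1 (AT2G24260) stood at 18.9 ± 1.99 and 20.9 ± 0.924 CPM (edgeR adjusted p = 0.478). Of 12 genes that set hair or non-hair fate 7 were below 0. At an unadjusted edgeR p under 0.05, 3 were lower and 0 higher, against 7.75% and 6.67% of all tested genes. CPC (AT2G46410), which promotes hair fate, stood at 3.8 ± 0.208 and 2.82 ± 0.237 CPM with no overlap (edgeR adjusted p = 0.237). GL2 (AT1G79840), which represses hair fate in non-hair cells, stood at 12.4 ± 0.970 and 13.8 ± 0.270 CPM, likewise with no overlap but in the other direction (edgeR adjusted p = 0.493). GL3 (AT5G41315) and JKD (AT5G03150) were also lower with no overlap, at 60.9% and 89.4% of control, and TTG1 (AT5G24520) higher, at 105%. ZFP5 (AT1G10480) stood at 132%, with overlap. Their edgeR adjusted p were 0.257, 0.279, 0.628 and 0.468, and GL3 rests on 26 to 66 counts per library. They were named after their values were seen. Among the 12 fate genes, all CsCl libraries lay below all controls in 3 and above in 2, against 9.75% and 10.0% of all tested genes. A shift in cell fate was not tested. Among 10 tested hormone and transcription factor genes described upstream of RSL4 the median was 0.01. DF1 (AT1G76880), also on that list, had 0 counts in all 6 libraries and was not tested. ARF5 (AT1G19850), an auxin response factor, stood at 24.7 ± 4.0 and 31.1 ± 0.351 CPM (edgeR adjusted p = 0.100). It passed in 2 other settings, with no filter (edgeR adjusted p = 0.025) and without control replicate 1 (0.00435).

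Family members of the 10 genes that are not known mainly from hairs had 1 of 16 lower and 1 higher, where 1.32% and 0.843% of all tested genes were. The lower count was 4 with DESeq2 and with no filter, 3 with robust edgeR, 2 with limma-voom, RLE factors, halved counts or without any 1 of control replicates 1 and 3 and CsCl replicate 1, and 0 with root marker scaling. RBOHE (AT1G19230), an NADPH oxidase of the same family as RHD2, fell by 0.50 ± 0.0842 on the log2 scale between 17.4 ± 1.02 CPM in controls and 12.3 ± 0.195 CPM with CsCl, at an edgeR adjusted p of 0.00614; it shares a window with its neighbour AT1G19240. EXPA4 (AT2G39700), an expansin of other tissues, rose by 0.27 ± 0.0618 on the log2 scale, between 78.4 ± 4.33 CPM in controls and 94.8 ± 4.38 CPM with CsCl, at an edgeR adjusted p of 0.0338. EXPA4 lost this call in a fit with a term for the replicate number (edgeR adjusted p = 0.0898), with root marker scaling, and without any 1 of control replicates 2 and 3 and CsCl replicates 2 and 3. Over the 16 genes the median log2 fold change was -0.19, with 9 below 0 and 7 above. All CsCl libraries lay below all controls in 7 of them and above in 2, against 9.75% and 10.0% of all tested genes.

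Some markers of other root tissues were lower, as PRP1 and PRP3 were. Of 17 tested, 4 were lower and none higher, against 1.32% of all tested genes on the lower side, and their median was -0.14 on the log2 scale. The count of 4 fell to 1 with the replicate block and without CsCl replicate 2. It fell to 2 with total counts alone and without any 1 of control replicates 2 and 3 and CsCl replicate 3. With root marker scaling it was 0, but that setting takes library sizes from these same genes and so cannot test them. The summed level of the list without its most abundant gene was 314 to 336 CPM in controls and 295 to 303 CPM with CsCl, and no marker was at 0 in all libraries. The endodermal CASP2 (AT3G11550) had a log2 fold change of -0.47 ± 0.0777 (adjusted p by edgeR = 0.00537), and it was the 1 gene left in both settings with a count of 1. CASP1 (AT2G36100), also of the endodermal Casparian strip and named after its values were seen, stood at -0.29 ± 0.0687 (adjusted p by edgeR = 0.0468). PYK10 (AT3G09260), a beta-glucosidase abundant in roots, had one of -0.38 ± 0.0668 (adjusted p by edgeR = 0.00840), and lost its call with the replicate block (adjusted p by edgeR = 0.0556) and without CsCl replicate 2 (0.0873). Fold changes were above 0 for 5 of the 17: ESB1, SHR, SMB, PLT1 and PLT2. ESB1 (AT2G28670), a further Casparian strip gene, stood at 0.311 ± 0.102 CPM in controls and 0.608 ± 0.0598 CPM with CsCl, with no overlap (log2 fold change 0.97 ± 0.405, unadjusted p = 0.0315, edgeR adjusted p = 0.289). It rests on 8 to 30 counts per library. When library sizes were set by the geometric mean of these root markers in place of TMM, log2 fold changes were -0.27 for PRP1, -0.30 for PRP3 and -0.35 for RSL4, and none of the 10 passed (adjusted p = 0.805, 0.743 and 0.781). These factors also differed within groups, at 1.14, 1.03 and 0.870 in controls. Over all genes, lower calls went from 277 to 56 and higher calls from 177 to 198. Whether the lost calls reflect root tissue share was not tested, nor was its part in the PRP result. Green tissue markers had none of 12 past the test with edgeR, DESeq2 or limma-voom, and a median of -0.06. At an unadjusted edgeR p under 0.05, 1 was lower and 1 higher, against 7.75% and 6.67% of all tested genes. LHCB1.3 (AT1G29930), a light-harvesting protein with near copies, stood at 14751 ± 1524 and 12779 ± 707 CPM (edgeR adjusted p = 0.242). Markers of trichomes, the hairs of the shoot, had 6 of 7 above 0, as were 10799 of the 21005 tested genes, and none past the edgeR test. At an unadjusted edgeR p under 0.05, 2 were higher, against 6.67% of all tested genes. All CsCl libraries lay above all controls in 3 of the 7, against 10.0% of all tested genes. Their summed level was 10.5 to 12.5 CPM in controls and 13.8 to 14.6 CPM with CsCl, and GIS (AT3G58070) had 6, 0 and 2 counts without and 14, 20 and 26 counts with CsCl (edgeR adjusted p = 0.0511). GIS passed with DESeq2 (adjusted p = 0.0426), limma-voom (0.0273), robust edgeR (0.0397), no filter (0.0350) and root marker scaling (0.00348), and without control replicate 1 (0.0189).

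**Figure D5:**
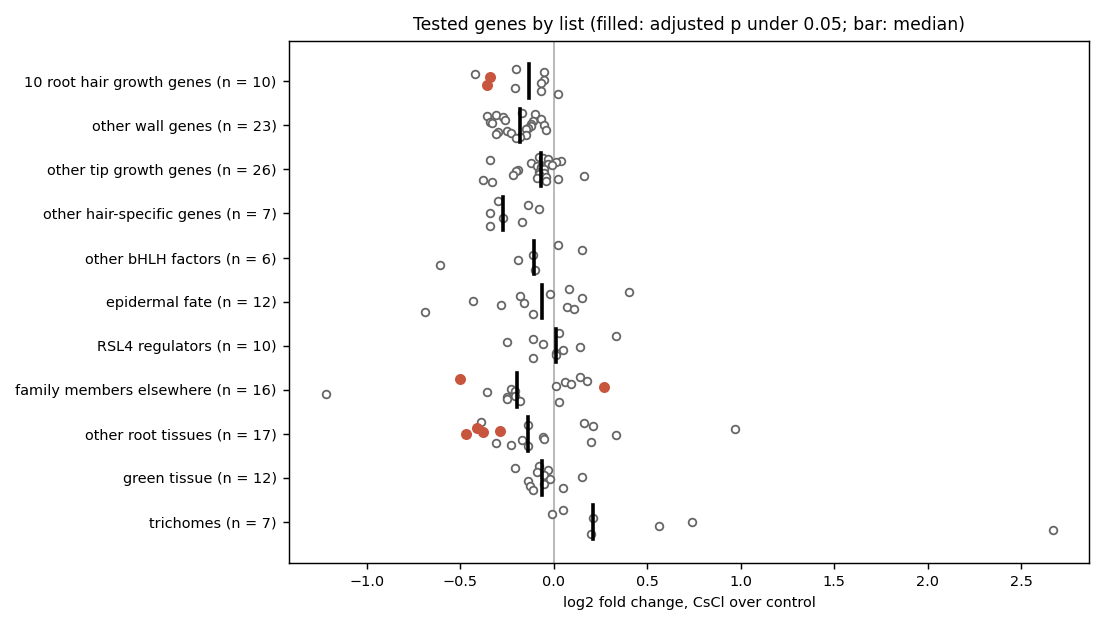
Log2 fold change, CsCl over control, of every tested gene in each list; filled points have an adjusted p under 0.05 and the bar is the list's median. The 10 root hair growth genes and the other wall genes lie mostly below 0, with medians of -0.14 and -0.18, and the trichome markers mostly above 0, with a median of 0.21. Other lists lie as low, with medians of -0.19 for family members elsewhere, -0.14 for other root tissues and -0.27 for other hair-specific genes.

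The genes whose levels followed the 10 most closely over the 6 libraries were outside all of the lists above. Likeness was the Pearson r with the mean standardized log2 CPM of the 10, among 15161 other genes with a mean of at least 5 CPM, and it is a description over 6 libraries of 2 groups, with no test. The 5 closest were AT5G38010, AT5G01780, AT4G35270, AT1G60900 and NUDT11 (AT5G45940), with r from 0.987 to 0.994. None of these 5 passed the comparison of groups, and their log2 fold changes ran from -0.33 to -0.05. The mean profile itself was 0.39 to 0.48 in controls and 0.27, -1.21 and -0.32 in CsCl replicates 1 to 3, in units of SD, so that CsCl replicate 2 weighs most in it.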

How the data were processed

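The deposited files hold raw counts per gene made by the authors, 1 file per sample. FastQC, STAR, featureCounts, edgeR and the TAIR10 build are named without versions in the submitters' processing notes. Which annotation was counted, whether by strand, and what was done with reads of several positions is not given in the sources used here. The test was edgeR 4.0.16 in R 4.3.3, with filterByExpr, TMM factors and group as the only term; 21005 genes passed the filter. SEs are the unshrunk coefficient over the root of F, and the common dispersion was 0.00636. On counts simulated for this comparison (20865 genes), the fit found 48 of 67 genes with a true 1.5-fold change, 63 of 67 with 2-fold and 66 of 66 with 4-fold, and 9 false calls. Smaller changes, such as that of RSL4 to 75.0% of control, were not simulated, nor was the counting of both mates. The recovery of changes as small as those of the members is therefore not known.

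The members and lists were chosen with earlier results of these data known. Of the list entries, 135 matched RefSeq TAIR10.1 by name and locus, 14 by locus only, and EXT13, RHS3, RHS4 and PEP were set aside because the name belongs to another locus there. Named genes were all 10 members, ACT2, GL2 and PYK10, and the 5 most alike in pattern. Per list they were also the 2 smallest adjusted p per direction past the test, or else the smallest unadjusted p. The 6 called genes with an element, EXT12, CASP1, GL3, JKD, TTG1, ZFP5 and the root markers above 0 were added after their values were seen. A further root marker is not reported here. Shared stretches (95 of 100 aligned bases) were searched with BLAST 2.17.0. Between libraries of the same group, chi-square per gene was 6.42 to 13.0, above sampling noise. Alternatives were other scaling factors, filters, DESeq2 1.42.0, limma-voom (limma 3.58.1), robust edgeR, a replicate block, halved counts, each library left out and a threshold of 0.01; a GC and length correction (mgcv 1.9.3) was added after seeing the data.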

Additional observations from a re-analysis of the deposited data

How the results depend on the processing

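The count of members lower with CsCl, 2 with all libraries, was 0 with total counts only, with root tissue marker scaling, after the GC and length correction and at an adjusted p under 0.01, and 0 to 2 with 1 library left out; members higher were 0 in every setting run. Over all genes, 277 lower became 180 with total counts only, 56 with root marker scaling, 518 with no filter and 106 at 0.01 (90 to 330 with 1 library left out). The 177 higher became 198 with total counts only and with root marker scaling, 301 with no filter and 80 at 0.01 (89 to 231). The root marker factors ran from 0.870 to 1.14, wider than TMM's 0.961 to 1.03. In the 6 further lists, 0 lower became 5 with no filter and 1 with DESeq2 (0 to 5 with 1 library left out, the 5 without control replicate 3 being extensins), and 0 higher became 1 with no filter (0 to 1). EXPA7 turned to 0.00 with root marker scaling. With 1 library left out, log2 fold changes crossed 0 for EXPA7 (-0.16 to 0.03), EXPA18 (-0.14 to 0.08), RHD6 (-0.23 to 0.11), RHD2 (-0.08 to 0.17) and COW1 (-0.19 to 0.04), and kept their sign for PRP1 (-0.43 to -0.30), PRP3 (-0.47 to -0.28), RSL2 (-0.32 to -0.08), RSL4 (-0.48 to -0.37) and LRX1 (-0.26 to -0.16). The cause of these shifts was not tested.

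Replicate numbers are shared between groups, but same-numbered samples did not deviate together (r of -0.08, 0.04 and -0.01). With 3 libraries per group these values cannot show if a plate or sowing was shared. With the replicate block, 2 members were lower and 0 higher, PRP1 at -0.34 (adjusted p = 0.0394) and PRP3 at -0.36 (0.0277), and 210 genes were lower and 146 higher in all.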
